A study of Mus musculus with 13 samples.

Results

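Bone marrow progenitors that lacked both Tifab and miR-146a (double knockout, dKO) were compared with wild-type (WT) progenitors across the transcriptome. The comparison took the 4 dKO and the 3 WT libraries of a 13-library series and the 11892 genes, of 24062 rows in the deposited table, whose mean over these 7 libraries was at least 0 on the log2 scale of counts per M reads (CPM). The dKO genotype was TIFAB-/-;miR146a-/- and the WT genotype was wild type at both loci. The remaining libraries were 3 from TIFAB-/- marrow with intact miR-146a (TIFAB_KO) and 3 from miR-146a-/- marrow with intact TIFAB (miR-146a_KO), and they are given here where they show how each loss compares with the combined one. Donor marrow of each genotype had been transplanted into Boy/J mice, which are syngeneic with the donors and had been irradiated with 7.0 Gy and, 3 h later, 4.75 Gy. All groups were therefore irradiated, transplanted hosts, and the host cells that remained were not separated in the counts. Mice were 2 to 5 months old, and the labels state 3 mice per group although dKO has 4 libraries, so which libraries come from separate mice was not recorded for that group. Cells were sorted as lineage-negative, Sca-1-negative and c-Kit-positive (LK), the fraction of marrow that holds committed myeloid, erythroid and megakaryocyte progenitors. The study asked whether the loss of both regulators together goes beyond the loss of either one in blood stem and progenitor cells.

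Toll-like receptors and the interleukin-1 receptor signal through MyD88 and IRAK kinases to TRAF6, a ubiquitin ligase that activates the kinase TAK1 and then NF-κB. TIFAB is a forkhead-associated domain protein that lowers TRAF6 protein and signalling, and miR-146a is a microRNA, itself induced by NF-κB, that binds the Traf6 and Irak1 transcripts. Both genes lie in the stretch of human chromosome arm 5q that is lost in del(5q) myelodysplastic syndrome, a disease of ineffective blood formation. In the mouse they lie on different chromosomes, Tifab on chromosome 13 and Mir146 on chromosome 11.

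The sequences that connect the deleted microRNA to the transcripts described below are its mature 5p strand and the matching sites in the 3′ untranslated regions (UTRs) of Traf6, Irak1 and Gm2a. The microRNA is from RefSeq (GRCm38.p6, chr11:43374435-43374456, minus strand), and its capitals mark the seed, bases 2 to 8. In the sites, read from GENCODE transcripts on GRCm38 (mm10), capitals mark the bases that pair with the seed, with the A opposite the first base of the microRNA where it is present.
miR-146a-5p: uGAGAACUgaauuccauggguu
Traf6 site at chr2:101697948-101697977, plus strand: ctctggtgttgAGTTCTCAtttagttgact
Traf6 site at chr2:101698012-101698041, plus strand: tggaaggcttaAGTTCTCAagtactccctc
Traf6 site at chr2:101698824-101698853, plus strand: ctttggagtctAGTTCTCAgggagccctac
Traf6 site at chr2:101701348-101701377, plus strand: tttgctactgcAGTTCTCAaacatggaagt
Irak1 site at chrX:74015382-74015411, minus strand: tcagaggtcaaAGTTCTCAtgcttggaagt
Irak1 site at chrX:74015366-74015395, minus strand: tcatgcttggaAGTTCTCAtagtgtgcaaa
Gm2a site at chr11:55111551-55111579, plus strand: ccaccacgcctAGTTCTCttgatttgtag
Traf6 held 4 sites with all 8 bases and Irak1 held 2, while Gm2a held 1 site with 7 bases, AGTTCTC without the final A. No such 7-base string stood in the 3′ UTR of the other 7 genes that differed between dKO and WT.

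Libraries held 9.52, 8.08, 8.68 and 11.7 M assigned reads in dKO replicates 1 to 4, and 12.0, 9.82 and 9.75 M in WT replicates 1 to 3. The sort was checked against its markers. Kit, which encodes c-Kit, stood at 386 to 447 CPM in dKO and at 368 to 410 CPM in WT, and Ly6a, which encodes Sca-1, at 1.11 to 5.30 CPM in dKO and 1.63 to 3.00 CPM in WT. Cd3e, Cd8a and Ms4a1, defining markers of T and B cells, did not exceed 1.04 CPM in any dKO or 1.13 CPM in any WT library. Of the 4 dKO libraries, replicate 4 differed most in what it did to the test: with it 8 genes passed, and without it 199 passed as higher (1.67%) and 138 as lower (1.16%) in dKO, the 8 among them. It was singled out after this effect was seen, and its median correlation with the compared libraries was 0.975. Genes said below to pass without it therefore show a dependence on that library and are not further calls. Replicate 3 had the lowest median correlation with the other dKO and WT libraries, 0.949, against 0.961 to 0.975 for the rest, and carried the most neutrophil transcripts. Outside the compared groups, TIFAB_KO replicate 3, which shares in the estimate of spread, had the steepest trend of level on transcript length, -0.66 log2 units for a 10-fold longer transcript. Some list medians without dKO replicate 3, and the counts of genes passing without TIFAB_KO replicate 3, are given below. Values of TIFAB_KO against WT or dKO are given only with TIFAB_KO replicate 3 included. How far they rest on that library was not tested.

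In dKO against WT, 8 genes passed with all 4 dKO libraries, 0.0673% of those tested. Limma was fitted to all 13 libraries, and a gene passed at a Benjamini-Hochberg adjusted p under 0.05 over the genes tested. Lyrm7 and Wdfy1 were higher, 2 genes or 0.0168%. Tifab, Gm2a, H2afy, Crip1, Rplp1 and Tsc22d3 were lower, 6 genes or 0.0505%. Where nothing in the labels ties libraries to separate mice, these p-values measure the spread between libraries, which may be partly technical.

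**Figure D1:**
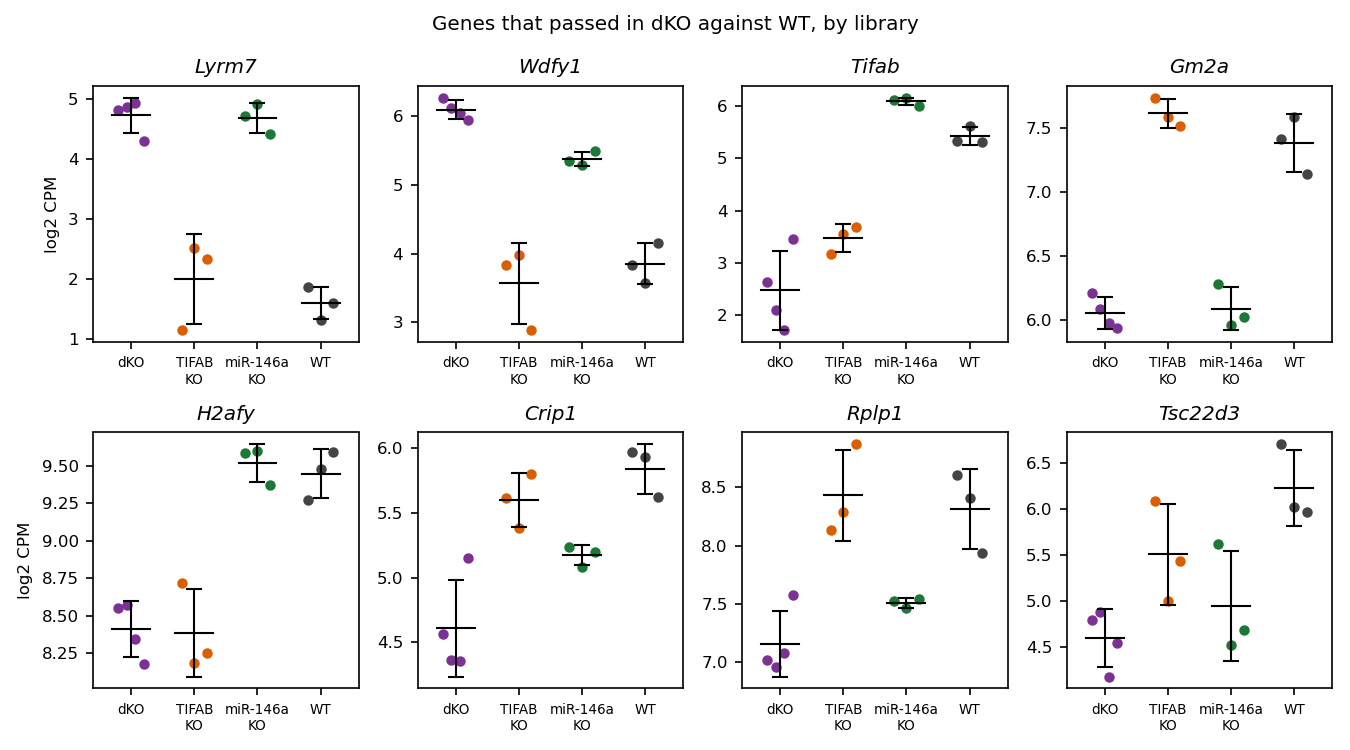
log2 CPM (vertical axis, a separate scale for each gene) of the 8 genes that passed in dKO against WT, by library in the 4 genotypes; points are libraries, horizontal lines are means and bars are ± 1 SD (n = 4 for dKO, 3 for the others). No dKO point overlaps a WT point in any panel. Lyrm7, Wdfy1, Gm2a, Crip1 and Tsc22d3 in miR-146a_KO and H2afy and Tifab in TIFAB_KO lie on the dKO side of WT.

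The deleted genes were examined first. Tifab stood at 2.64, 2.10, 1.72 and 3.46 log2 CPM in dKO replicates 1 to 4 and at 5.34, 5.63 and 5.31 log2 CPM in WT replicates 1 to 3. All 4 dKO libraries were therefore below all 3 WT libraries, with dKO replicate 4 the closest, and some reads remained at the locus (3.226 to 10.99 CPM in dKO, against 39.6 to 49.4 CPM in WT). Tifab fell by 2.94 ± 0.29 (SE) on the log2 scale (chr13:56173704-56178885, limma adjusted p = 2.64e-05). The difference between dKO and TIFAB_KO for Tifab was -0.99 ± 0.29 with a limma adjusted p of 0.148. The Mir146 row, the microRNA precursor, had 0 reads in each of the 13 libraries, which allows at most 0.256 to 0.372 CPM in the dKO libraries and 0.250 to 0.308 CPM in the WT libraries by counting error alone. The count table therefore carries no check of the microRNA deletion.

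Lyrm7 showed the largest rise among the genes that passed. It encodes a mitochondrial chaperone that brings the Rieske iron-sulphur protein into respiratory complex III. Its level was 4.82, 4.87, 4.94 and 4.30 log2 CPM in dKO and 1.86, 1.32 and 1.60 log2 CPM in WT, with no overlap. It rose by 3.14 ± 0.30 on the log2 scale, 8.82-fold (limma adjusted p = 2.64e-05). Levels were 1.14, 2.52 and 2.33 log2 CPM in TIFAB_KO and 4.72, 4.92 and 4.41 log2 CPM in miR-146a_KO, so dKO and miR-146a_KO shared the high level and TIFAB_KO and WT the low one. The difference between dKO and miR-146a_KO was 0.05 ± 0.30 (limma adjusted p = 1).

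Wdfy1 was the other gene that rose. Its product is an endosomal protein with WD40 repeats and a FYVE domain that recruits the adaptor TRIF to Toll-like receptors 3 and 4. It stood at 6.27, 6.13, 6.05 and 5.95 log2 CPM in dKO and at 3.84, 3.57 and 4.16 log2 CPM in WT. Every dKO library was above every WT library, and the rise was 2.24 ± 0.22 on the log2 scale, 4.73-fold (limma adjusted p = 2.64e-05). miR-146a_KO libraries lay between the groups, at 5.35, 5.30 and 5.50 log2 CPM, and TIFAB_KO libraries near WT, at 3.83, 3.98 and 2.89 log2 CPM. The excess of dKO over miR-146a_KO was 0.72 ± 0.22 and did not pass (limma adjusted p = 1). The test of whether the combined loss exceeded the sum of both single losses gave 1.01 ± 0.33 on the log2 scale and an adjusted p of 0.927 with limma. Wdfy1 (chr1:79702262-79776143, minus strand) overlaps Mrpl44 on the opposite strand, and the strand setting of the counting was not given in the sources used here.

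Gm2a encodes the GM2 activator, a lysosomal protein that presents gangliosides to β-hexosaminidase. Its level was 6.21, 6.09, 5.97 and 5.93 log2 CPM in dKO and 7.42, 7.59 and 7.14 log2 CPM in WT, again without overlap. It fell by 1.33 ± 0.14 on the log2 scale (limma adjusted p = 5.61e-05). The miR-146a_KO libraries (6.28, 5.96 and 6.02 log2 CPM) were near dKO, and the TIFAB_KO libraries (7.74, 7.59 and 7.52 log2 CPM) near WT. The part of the 7-base site printed above in this fall was not tested.

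H2afy, which encodes the histone variant macroH2A1, had 8.55, 8.57, 8.34 and 8.18 log2 CPM in dKO and 9.27, 9.48 and 9.59 log2 CPM in WT. The groups did not overlap, and the level fell by 1.04 ± 0.15 on the log2 scale (limma adjusted p = 0.00527). Here the TIFAB_KO libraries (8.72, 8.18 and 8.25 log2 CPM) were near dKO and the miR-146a_KO libraries (9.58, 9.60 and 9.37 log2 CPM) near WT. Dropping WT replicate 2 moved the limma adjusted p to 0.0729.

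The other genes that fell were Crip1, Rplp1 and Tsc22d3. Crip1, which encodes a small LIM-domain protein, had 4.57, 4.37, 4.35 and 5.15 log2 CPM in dKO and 5.97, 5.93 and 5.62 log2 CPM in WT, a fall of 1.23 ± 0.19 (limma adjusted p = 0.00773). Rplp1, an acidic protein of the ribosomal stalk, had 7.02, 6.96, 7.08 and 7.57 log2 CPM in dKO and 8.60, 8.41 and 7.94 log2 CPM in WT, a fall of 1.16 ± 0.19 (limma adjusted p = 0.0148). In both genes dKO replicate 4 was the dKO library nearest to WT. Tsc22d3 encodes the glucocorticoid-induced leucine zipper, a transcriptional regulator that restrains inflammatory signalling. Its level was 4.79, 4.87, 4.17 and 4.54 log2 CPM in dKO and 6.70, 6.01 and 5.96 log2 CPM in WT, a fall of 1.63 ± 0.28 (limma adjusted p = 0.0216). These 3 calls rest on few libraries. The limma adjusted p of Crip1 became 0.0666 when WT replicate 1 was left out and 0.104 when WT replicate 2 was. That of Rplp1 was 0.114 without WT replicate 1, 0.177 without WT replicate 2, and 0.0860, 0.0707 and 0.0661 without dKO replicates 1, 2 and 3. That of Tsc22d3 was 0.160 and 0.104 without WT replicates 1 and 2, and 0.0613 and 0.0859 without dKO replicates 1 and 3.

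Of the 8 genes, Tifab, Gm2a, Lyrm7 and H2afy lie on the chromosomes of the deleted genes. H2afy lies 0.0713 Mb from Tifab on chromosome 13 (chr13:56073619-56136361), and Lyrm7 and Gm2a lie 11.5 and 11.7 Mb from Mir146 on chromosome 11 (chr11:54826866-54860916 and chr11:55098115-55113029). Within 5 Mb of Tifab, 65 further genes were tested, H2afy among them, and 1 passed. Within 20 Mb of Mir146, 214 genes were tested and 2 passed. An unadjusted limma p under 0.05 was reached by 16.9% of the genes near Tifab and 15.4% of those near Mir146, against 14% of all genes tested. The median absolute log2 fold change was 0.233 near Tifab and 0.245 near Mir146, against 0.233 over all genes. The tested gene nearest to Mir146 was Pttg1, which encodes the mitotic regulator securin, 0.0488 Mb away; it differed by 0.90 ± 0.26 (limma adjusted p = 0.214) and passed without dKO replicate 4. On these measures both stretches lay near the values over all genes, which does not describe single genes. Of the 214 genes near Mir146, 26 were higher and 7 lower at an unadjusted limma p under 0.05. Over all genes tested, 9.7% were higher and 4.31% lower at that p. Irgm1, an interferon response gene described below, was among the higher ones, 5.49 Mb from Mir146 (1.09 ± 0.27, limma adjusted p = 0.162). The part of position in these differences was not tested.

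**Figure D2:**
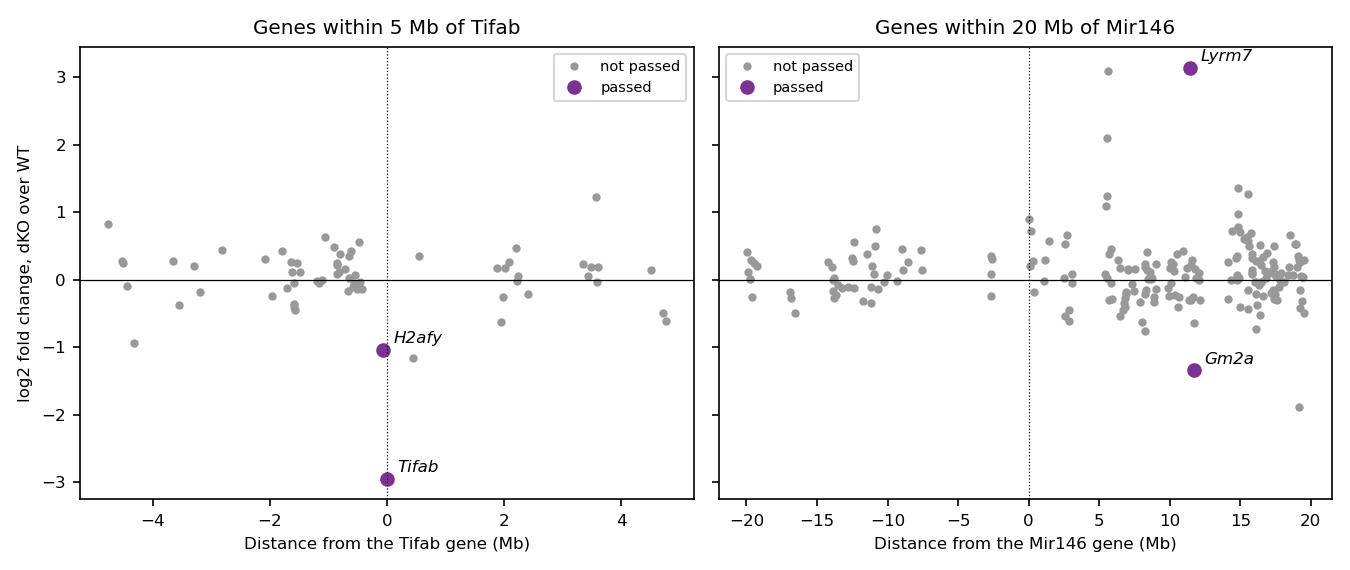
log2 fold change of dKO over WT (vertical axis) against distance from the Tifab gene (left, genes within 5 Mb) and from the Mir146 gene (right, genes within 20 Mb); each point is 1 gene tested and purple points passed. H2afy sits beside Tifab at -1.04, while Lyrm7 at 3.14 and Gm2a at -1.33 stand close to each other, 11.5 and 11.7 Mb from Mir146.

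Against WT, 2 genes passed in TIFAB_KO (0.0168%), Tifab and H2afy, and 10 passed in miR-146a_KO (0.0841%), Lyrm7, Wdfy1 and Gm2a among them; these contrasts share the WT libraries with that of dKO. The contrasts of dKO with each single knockout reuse the dKO libraries and are given side by side with the values above. Against TIFAB_KO, 4 genes passed (2 higher and 2 lower, each 0.0168%): Wdfy1 (2.53), Lyrm7 (2.73), Gm2a (-1.57) and Rplp1 (-1.27) on the log2 scale. Against miR-146a_KO, 6 passed (4 higher, 0.0336%, and 2 lower, 0.0168%), among them Tifab at -3.61 and H2afy at -1.11. The others were Cmss1, Stard6 and a pair of unnamed loci, which were named after their values were seen, and none of them passed in dKO against WT. For Crip1 the difference was -0.99 against TIFAB_KO and -0.56 against miR-146a_KO, and for Tsc22d3 -0.91 and -0.34, with limma adjusted p-values of 0.0825, 1, 0.154 and 1 in that order. No gene passed the test of non-additivity, in which 504 genes (4.24%) had an unadjusted limma p under 0.05.

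Below the threshold, more genes were higher than lower in dKO. An unadjusted limma p under 0.05 was reached by 1153 higher genes (9.7%) and 512 lower genes (4.31%), so that 69.2% of them were higher in dKO. That split was 49.8% higher after centring each library on its median, 49.6% after quantile normalization and 43.5% after upper-quartile scaling. The excess of higher genes therefore depends on the scaling. In 1061 genes (8.92%) every dKO library was above every WT library, and in 429 (3.61%) every one was below. Of all genes tested, 60.2% were above 0 and 39.8% below, and the median log2 fold change was 0.08, a level that the lists below should be read against.

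**Figure D3:**
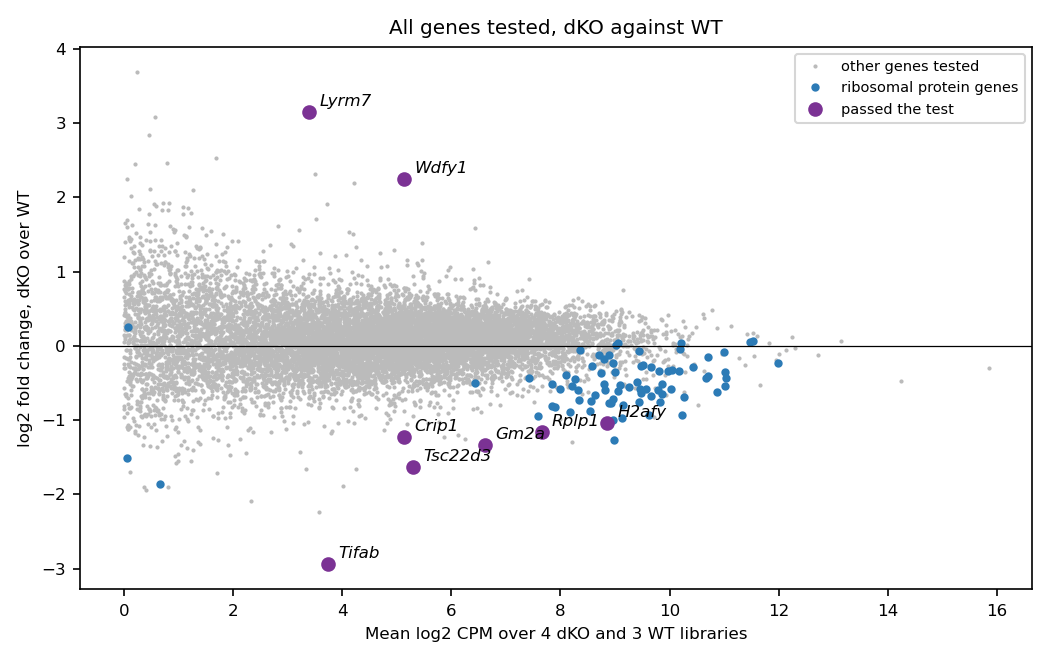
log2 fold change of dKO over WT (vertical axis) against mean log2 CPM over the 4 dKO and 3 WT libraries (horizontal axis) for the 11892 genes tested; purple points passed the test and blue points are the other cytosolic ribosomal protein genes. The ribosomal protein genes form a group of abundant transcripts mostly below 0, with a median of -0.53.

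The genes with the smallest p-values short of the threshold had limma adjusted p-values of 0.0698 to 0.0832. On the higher side, Skp2, the F-box protein that directs the cell-cycle inhibitor p27 to degradation, had 5.95, 5.85, 5.81 and 5.88 log2 CPM in dKO and 4.83, 4.81 and 5.17 log2 CPM in WT. Vps13c, which encodes a lipid transfer protein at organelle contacts, had 7.77, 7.85, 8.01 and 7.63 log2 CPM in dKO and 7.06, 6.80 and 6.88 log2 CPM in WT. The dKO libraries of both genes were close together and above WT. In miR-146a_KO, Vps13c had 8.08, 7.99 and 8.07 log2 CPM and passed against WT (1.13, limma adjusted p = 0.0253). Slc26a2 (a sulphate transporter, 1.07), Adpgk (an ADP-dependent glucokinase, 0.84), Pik3c2a (a class II phosphoinositide 3-kinase, 0.82) and Gpr128 (an adhesion receptor, 0.77) had log2 differences of that size without overlap between groups. On the lower side were Rplp2 (-0.82), the partner of Rplp1 in the ribosomal stalk, R3hdm4 (-0.78) and Rpl37a (-0.77), a large-subunit protein. Without dKO replicate 4, and also without TIFAB_KO replicate 3, each of these 9 genes passed; in the fit without dKO replicate 4 they did so with limma adjusted p-values of 0.00629 (R3hdm4) to 0.0238 (Skp2). Skp2, Adpgk and R3hdm4 overlap genes on the opposite strand.

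The TRAF6 pathway itself was described from its receptors to NF-κB. Of 46 pathway components tested, 1 passed higher (Wdfy1) and 1 lower (Tifab), with a median log2 fold change of 0.14, against 0.08 over all genes; the median was 0.04 to 0.07 under the other scalings. Traf6, on which both deleted regulators act, had 7.52, 7.58, 7.46 and 7.08 log2 CPM in dKO and 7.08, 7.22 and 7.47 log2 CPM in WT. These values overlap, and the difference was 0.15 ± 0.19 (limma adjusted p = 0.739). Irak1, the kinase that hands the signal to TRAF6, had 7.49, 7.40, 7.41 and 7.46 log2 CPM in dKO and 7.36, 7.24 and 7.35 log2 CPM in WT, a difference of 0.12 ± 0.12 (limma adjusted p = 0.663). Tifa, the TRAF6-binding partner of TIFAB, had 5.06, 5.25, 4.23 and 4.79 log2 CPM in dKO and 4.73, 4.96 and 4.73 log2 CPM in WT. Its difference of 0.02 ± 0.20 did not pass (limma adjusted p = 0.968), and its sign turned under the other scalings. Tifa overlaps Ap1ar on the opposite strand.

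By role, the 15 receptors tested had a median log2 fold change of 0.20 with 10 above 0, and the 9 adaptors and kinases next to TRAF6 had a median of 0.23 with 7 above 0. The 9 members of the TRAF6 ubiquitin complex had 0.13, the 8 TAK1 and IKK kinases had 0.15, and the 5 NF-κB subunits had -0.23 with 4 below 0. Apart from Wdfy1 and Tifab, no member of these classes passed. Without dKO replicate 4, 4 pathway components passed as higher and 1 as lower, against 1.67% and 1.16% of all genes in that fit. The median of the list was 0.07 without WT replicate 1.

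NF-κB feedback and response genes were next. None of the 36 tested passed in limma, 25 were below 0 and 11 above 0, and the median was -0.18 (0.08 over all genes). At an unadjusted limma p under 0.05, 1 (2.78%) was higher and 4 (11.1%) lower, against 9.7% and 4.31% of all genes. The members given here have the smallest p-values in the direction of the median. Tnf, the inflammatory cytokine, had 3.85, 3.30, 4.43 and 4.19 log2 CPM in dKO and 4.93, 5.02 and 4.70 log2 CPM in WT (difference -0.94 ± 0.39, limma adjusted p = 0.304). Ccl9, a myeloid chemokine, had 6.75, 6.67, 7.00 and 6.92 log2 CPM in dKO and 7.47, 7.48 and 7.11 log2 CPM in WT (-0.52 ± 0.18, limma adjusted p = 0.237). In both genes the groups did not overlap, but neither passed. The median of the list was -0.40 without dKO replicate 3, -0.28 without WT replicate 3 and -0.12 without dKO replicate 2. The 11 feedback inhibitors had a median of -0.17, the 12 cytokines and chemokines -0.11, and the 13 other response genes -0.23.

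Reported miR-146a targets were examined through 17 genes, of which Card10 and Fas were too low to test. Of the 15 tested, none passed in limma, 9 were above 0 and 6 below, and the median was 0.12, or 0.02 to 0.05 under the other scalings. At an unadjusted limma p under 0.05, 1 (6.67%) was higher, against 9.7% of all genes. Numb, a regulator of Notch signalling with 1 site of 8 bases, had 5.00, 4.63, 4.54 and 4.68 log2 CPM in dKO and 4.15, 4.64 and 4.58 log2 CPM in WT, which overlap (difference 0.25 ± 0.19, limma adjusted p = 0.537).

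The 8-base match AGTTCTCA was also searched in the 3′ UTR of all genes tested that had one. It stood in 514 genes, 4.75% of them, of which none passed and 71.4% were above 0 with a median of 0.15. At an unadjusted limma p under 0.05, 57 of them were higher (11.1%) and 9 lower (1.75%), against 9.37% and 4.83% of the genes without a match. Genes without a 7-base or 8-base match (9423 genes) had a median of 0.07 with 58.5% above 0. Genes with a match have longer 3′ UTRs (median 2732 bases, against 1058 bases without a match). In 4 bins of 3′ UTR length holding about equal numbers of genes, from shortest to longest, the medians of genes with and without the match were 0.06 and -0.04 (16 genes with a match), 0.08 and 0.05, 0.08 and 0.11, and 0.19 and 0.18. In all but the shortest bin the medians with and without the match lay close together. A match is a string in the transcript and not a measured binding site.

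Genes of the human del(5q) regions were followed through 37 mouse counterparts tested. The median of -0.01 lay below the 0.08 of all genes. At an unadjusted limma p under 0.05, 4 (10.8%) were higher and 8 (21.6%) lower, against 9.7% and 4.31% of all genes. Tifab, H2afy and Gm2a, described above, passed as lower and none passed as higher, against 0.0505% and 0.0168% of all genes. The list holds the deleted gene itself and its neighbours, so these 3 are no separate evidence.

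Cell identity genes were compared by lineage. In bulk RNA, a change in the number of cells of one type and a change of RNA per cell cannot be told apart. No gene of the lists in this paragraph passed with all 4 dKO libraries. At an unadjusted limma p under 0.05, 9.7% of all genes were higher and 4.31% lower. At that p, 2 megakaryocyte genes (6.25%) were higher and 5 (15.6%) lower, and 1 erythroid gene (2.63%) was higher and 2 (5.26%) lower. Of stem cell genes, 1 (2.86%) was higher and 4 (11.4%) lower, and of granulocyte-monocyte progenitor genes, 5 (13.9%) were higher and 1 (2.78%) lower. The megakaryocyte and platelet list had a median log2 fold change of -0.21 over 32 genes, 22 of them below 0. Pf4, the platelet chemokine PF4, had 8.20, 8.22, 7.08 and 7.73 log2 CPM in dKO and 8.52, 8.77 and 8.85 log2 CPM in WT, without overlap (difference -0.91 ± 0.21, limma adjusted p = 0.136). Lat, an adaptor of platelet collagen-receptor signalling, had 3.42, 3.28, 3.76 and 3.46 log2 CPM in dKO and 4.31, 4.17 and 4.46 log2 CPM in WT (-0.83 ± 0.21, limma adjusted p = 0.162). Pf4 passed without dKO replicate 4 (-0.88, limma adjusted p = 0.0451). The median of this list was -0.04 without dKO replicate 3, -0.32 without dKO replicate 2, -0.12 without dKO replicate 4 and -0.09 without WT replicate 3. The 38 erythroid genes had a median of 0.04, which turned to between -0.05 and -0.03 under the other scalings, with Klf1, the erythroid master factor, at 0.39 ± 0.22 (limma adjusted p = 0.418). The 35 stem cell and multipotent progenitor genes had a median of -0.09, and the 36 granulocyte-monocyte progenitor genes a median of 0.10. The progenitor medians depended on single libraries. That of the granulocyte-monocyte list was -0.02 without WT replicate 3, near 0 without dKO replicate 3, 0.06 without dKO replicate 1, and 0.24, 0.21 and 0.19 without WT replicate 1, dKO replicate 2 and dKO replicate 4. That of the erythroid list was -0.03 and -0.02 without WT replicates 1 and 2 and 0.12 without WT replicate 3. That of the stem cell list ran from -0.12 to -0.02 over the libraries left out. Against the same WT libraries, the granulocyte-monocyte list had medians of 0.51 in TIFAB_KO and 0.18 in miR-146a_KO. The megakaryocyte list had -0.06 and -0.24 in that order.

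Transcripts of late granulocytes varied widely among the dKO libraries. The 19 late granulocyte genes tested, of 31 listed, had a median log2 fold change of 0.69 with 16 above 0. None of them passed, and 2 (10.5%) were higher at an unadjusted limma p under 0.05, against 9.7% of all genes. Their mean deviation from the 7-library mean was 0.84, -0.02, 1.52 and -1.08 in dKO replicates 1 to 4 and -0.02, -0.73 and -0.50 in WT replicates 1 to 3. The dKO libraries thus held both the highest and the lowest values. Ngp, a neutrophil granule protein, had 6.13, 4.46, 7.01 and 0.40 log2 CPM in dKO and 3.02, 0.66 and 2.89 log2 CPM in WT (difference 2.31 ± 1.30, limma adjusted p = 0.417). The neutrophil genes Ltf and Retnlg were too low to be tested. The median was 0.21 without dKO replicate 3 and 0.99 without dKO replicate 4. Against the same WT libraries, the list had medians of 0.48 in TIFAB_KO and 0.28 in miR-146a_KO.

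The 22 mast cell, basophil and eosinophil genes tested, of 32 listed, had a median log2 fold change of 0.57 with 18 above 0. None passed, and 5 (22.7%) were higher at an unadjusted limma p under 0.05, against 9.7% of all genes. The single knockouts had list medians of 0.48 (TIFAB_KO) and 0.55 (miR-146a_KO) against the same WT libraries. Cyp11a1, a steroid-synthesis enzyme expressed by basophils and mast cells, had 2.67, 2.14, 4.35 and 1.92 log2 CPM in dKO and 1.44, 0.10 and -0.83 log2 CPM in WT (difference 2.53 ± 0.60, limma adjusted p = 0.136). Epx, eosinophil peroxidase, had 6.44, 6.14, 6.74 and 4.14 log2 CPM in dKO and 5.48, 5.12 and 3.72 log2 CPM in WT (1.09 ± 0.49, limma adjusted p = 0.337). Without dKO replicate 4, Cyp11a1 (2.81), Epx (1.67) and Gzmb (1.52), a granzyme, passed with limma adjusted p-values of 0.0246, 0.0238 and 0.0368. The median of the list was 0.29 without dKO replicate 3.

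Among 23 monocyte, macrophage and dendritic cell genes tested, of 37 listed, 20 were above 0 and the median was 0.40. None passed, and 1 (4.35%), Vcam1, was higher at an unadjusted limma p under 0.05, against 9.7% of all genes. Vcam1, an adhesion molecule of marrow macrophages and stroma, had 4.58, 4.73, 6.36 and 4.95 log2 CPM in dKO and 4.13, 1.97 and 2.79 log2 CPM in WT (difference 2.19 ± 0.50, limma adjusted p = 0.114). Vcam1 passed without dKO replicate 4 (2.26, limma adjusted p = 0.0325), without WT replicate 1 (2.77, limma adjusted p = 0.0469) and without TIFAB_KO replicate 1 (limma adjusted p = 0.0446). C1qb, a complement component of macrophages, stood at 0.61, 0.74, -0.21 and 2.39 log2 CPM in dKO and at -0.19, -1.13 and -0.58 log2 CPM in WT. Every WT value was below 0 log2 CPM, so C1qb met the level tested only through dKO, chiefly replicate 4. No difference is therefore read from it. Of the macrophage markers, Marco and Siglec1 were below the level tested. The mean deviation of the list was 0.11, -0.00, 0.41 and 0.38 in dKO replicates 1 to 4 and -0.09, -0.34 and -0.46 in WT replicates 1 to 3, with every dKO library above every WT library. Leaving out WT replicate 3 gave a median of 0.25, and leaving out WT replicate 1 gave 0.60. Against the same WT libraries, the list had medians of 0.19 in TIFAB_KO and 0.52 in miR-146a_KO. The summed level of the list was 599 to 1088 CPM in dKO and 469 to 597 CPM in WT. Of the lineages that the sort should remove, 9 of 30 T and natural killer cell genes and 12 of 30 B-lineage genes were high enough to test and none passed (limma; 0 and 1 at an unadjusted p under 0.05). The share of mature cells in the libraries was not measured, and its part in these differences was not tested.

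Cell-cycle genes were taken by phase. Of 40 genes of G2 and mitosis, 35 were above 0, with a median of 0.18 (0.09 to 0.11 under the other scalings, 0.27 without WT replicate 3), and none passed after adjustment. At an unadjusted limma p under 0.05, 9 (22.5%) were higher and none lower, against 9.7% and 4.31% of all genes. Ccnb1, cyclin B1, had 7.13, 7.76, 7.20 and 6.95 log2 CPM in dKO and 6.38, 6.62 and 6.91 log2 CPM in WT (difference 0.62 ± 0.19, limma adjusted p = 0.215). Pttg1, securin, which lies beside Mir146, had 5.31, 5.19, 5.62 and 4.78 log2 CPM in dKO and 4.09, 3.85 and 5.04 log2 CPM in WT (0.90 ± 0.26, limma adjusted p = 0.214). The 39 S-phase genes had a median of 0.11 (0.03 without WT replicate 1, 0.18 without WT replicate 3), with 5 higher (12.8%) and 1 lower (2.56%) at an unadjusted limma p under 0.05. Rrm2, a subunit of ribonucleotide reductase, differed by 0.43 ± 0.14 (limma adjusted p = 0.232). On the side of growth arrest, Cdkn1a, the p53-induced inhibitor p21, had 5.72, 5.41, 5.34 and 6.40 log2 CPM in dKO and 7.33, 7.14 and 6.46 log2 CPM in WT (-1.26 ± 0.35, limma adjusted p = 0.210). Perp, another p53 target, had 1.04, 0.94, 0.74 and 1.17 log2 CPM in dKO and 2.64, 2.21 and 3.20 log2 CPM in WT (-1.71 ± 0.39, limma adjusted p = 0.114). Neither pair of groups overlapped, yet the 30 p53-related genes tested were split evenly, 15 above and 15 below 0, with none passing. At an unadjusted limma p under 0.05, 1 (3.33%) was higher and 4 (13.3%) lower. Without dKO replicate 4, Pttg1, Cdkn1a and Perp passed, with limma adjusted p-values of 0.0412, 0.0291 and 0.0332.

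Immediate early genes, which are switched on within minutes of a stimulus, leaned to lower levels in dKO. Of 33 tested, 26 were below 0, 13 of these with an unadjusted limma p under 0.05 (4.31% of all genes were lower at that p), with a median of -0.46, and none passed after adjustment. The median was -0.71 for 8 AP-1 genes, -0.51 for 10 genes of the EGR, NR4A and KLF families and -0.23 for 15 others. Fosb, an AP-1 subunit, had 7.89, 7.65, 7.64 and 7.42 log2 CPM in dKO and 9.188, 9.002 and 8.659 log2 CPM in WT (difference -1.30 ± 0.34, limma adjusted p = 0.173). Ier5, a regulator of the heat shock factor HSF1, had 5.95, 4.76, 5.31 and 6.39 log2 CPM in dKO and 7.01, 6.72 and 6.67 log2 CPM in WT (-1.20 ± 0.32, limma adjusted p = 0.192). Both genes were lower in every dKO library than in any WT library. Ier5 passed without dKO replicate 4 (-1.46, limma adjusted p = 0.0185), as did Ier2, another immediate early gene (limma adjusted p = 0.0158), and without TIFAB_KO replicate 1 Fosb passed (limma adjusted p = 0.0439). The summed level of the list was 5332 to 7921 CPM in dKO and 8128 to 9120 CPM in WT. The single knockouts, which share these WT libraries, had medians of -0.61 (TIFAB_KO) and -0.46 (miR-146a_KO) against WT.

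Of 50 interferon response genes, 35 were above 0, 13 of them with an unadjusted limma p under 0.05 and 1 lower, and none passed; the median was 0.13, against 0.03 to 0.06 under the other scalings, 0.26 without WT replicate 2 and 0.21 without dKO replicate 2. Of all genes, 9.7% were higher and 4.31% lower at that p. The single knockouts had list medians of 0.20 (TIFAB_KO) and 0.22 (miR-146a_KO) against the same WT libraries. Irgm1, an interferon-induced GTPase, had 5.77, 5.81, 6.17 and 4.90 log2 CPM in dKO and 4.31, 4.45 and 4.96 log2 CPM in WT (difference 1.09 ± 0.27, limma adjusted p = 0.162). Gbp7, a guanylate-binding protein, had 6.75, 7.07, 7.70 and 6.59 log2 CPM in dKO and 6.16, 6.30 and 6.45 log2 CPM in WT (0.72 ± 0.21, limma adjusted p = 0.210). In Irgm1, which lies 5.49 Mb from Mir146, only dKO replicate 4 fell within the WT range. Without that library Irgm1, Gbp7 and Ifih1, an RNA sensor, passed with limma adjusted p-values of 0.0102, 0.0283 and 0.0248.

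**Figure D4:**
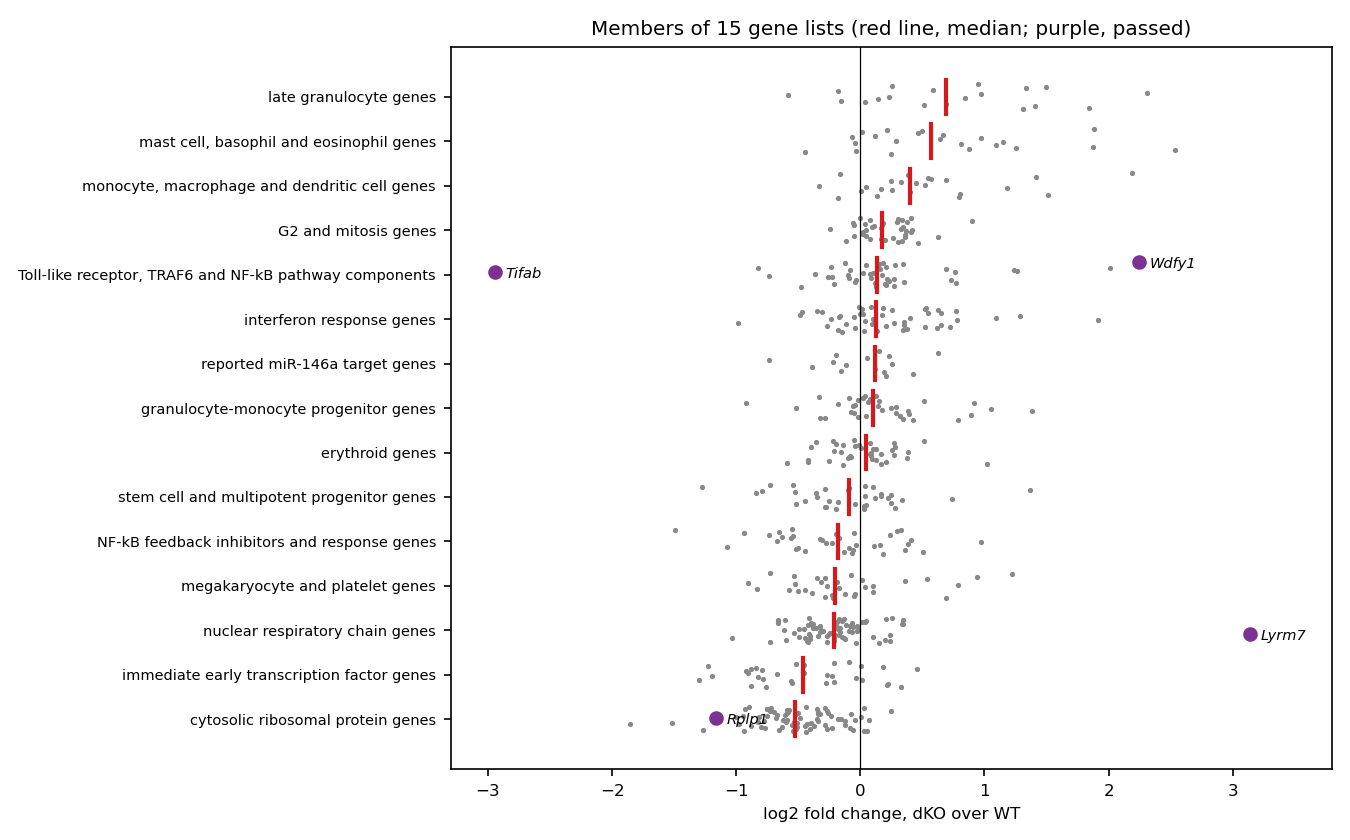
log2 fold change of dKO over WT (horizontal axis) of each tested member of 15 gene lists (vertical axis); grey points are genes, purple points passed, and red lines are list medians. Medians run from 0.69 (late granulocyte genes) to -0.53 (cytosolic ribosomal protein genes), and the members that passed are Wdfy1, Tifab, Lyrm7 and Rplp1.

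Cytosolic ribosomal protein genes formed the most uniform group. Of 78 tested, 72 were below 0 and 6 above 0, with a median of -0.53, and 50 had an unadjusted limma p under 0.05 in the lower direction, none in the higher. Over all genes, 4.31% reached that p as lower. After adjustment 1, Rplp1, passed. In 37 of the 78 every dKO library was below every WT library, against 3.61% of all genes. Large-subunit (46 genes, median -0.52) and small-subunit genes (32 genes, median -0.55) had similar medians, and the summed level of the list was 54454 to 63145 CPM in dKO and 69718 to 84074 CPM in WT. The mean deviation of the list was -0.32, -0.28, -0.31 and 0.01 in dKO replicates 1 to 4, and 0.51, 0.18 and 0.20 in WT replicates 1 to 3. Replicate 4 thus lay between the other dKO libraries and WT. Without it 30 of 76 ribosomal protein genes passed as lower, against 1.16% of all genes (1.67% passed as higher). The single knockouts had medians of 0.03 (TIFAB_KO) and -0.39 (miR-146a_KO) against the same WT libraries. The TIFAB_KO median includes TIFAB_KO replicate 3, the library with the steepest trend on transcript length, and was not computed without it. Many ribosomal protein genes have processed pseudogenes of near-identical sequence, which counting can split from the parent gene.

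Genes of related functions had smaller negative medians. The 75 nuclear respiratory chain genes had a median log2 fold change of -0.21 with 61 below 0, although its 1 member that passed was Lyrm7, which rose. Complex I (36 genes) had a median of -0.23, complex IV (10 genes) -0.24 and ATP synthase (15 genes) -0.22. The 36 proteasome genes had a median of -0.19 (-0.11 without WT replicate 3, -0.12 without WT replicate 1) and the 35 translation factor genes a median of -0.10 (-0.15 without WT replicate 2, -0.05 without dKO replicate 1). None passed, and in each list 6 were lower and 0 higher at an unadjusted limma p under 0.05. The lower shares were 16.7% and 17.1%, against 4.31% of all genes. Eef1g, an elongation factor subunit, had 9.68, 8.71, 8.64 and 10.14 log2 CPM in dKO and 10.50, 10.12 and 10.15 log2 CPM in WT (difference -0.96 ± 0.27, limma adjusted p = 0.210), with dKO replicate 4 in the range of WT. Without that library Eef1g passed at -1.25 (limma adjusted p = 0.0111).

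**Figure D5:**
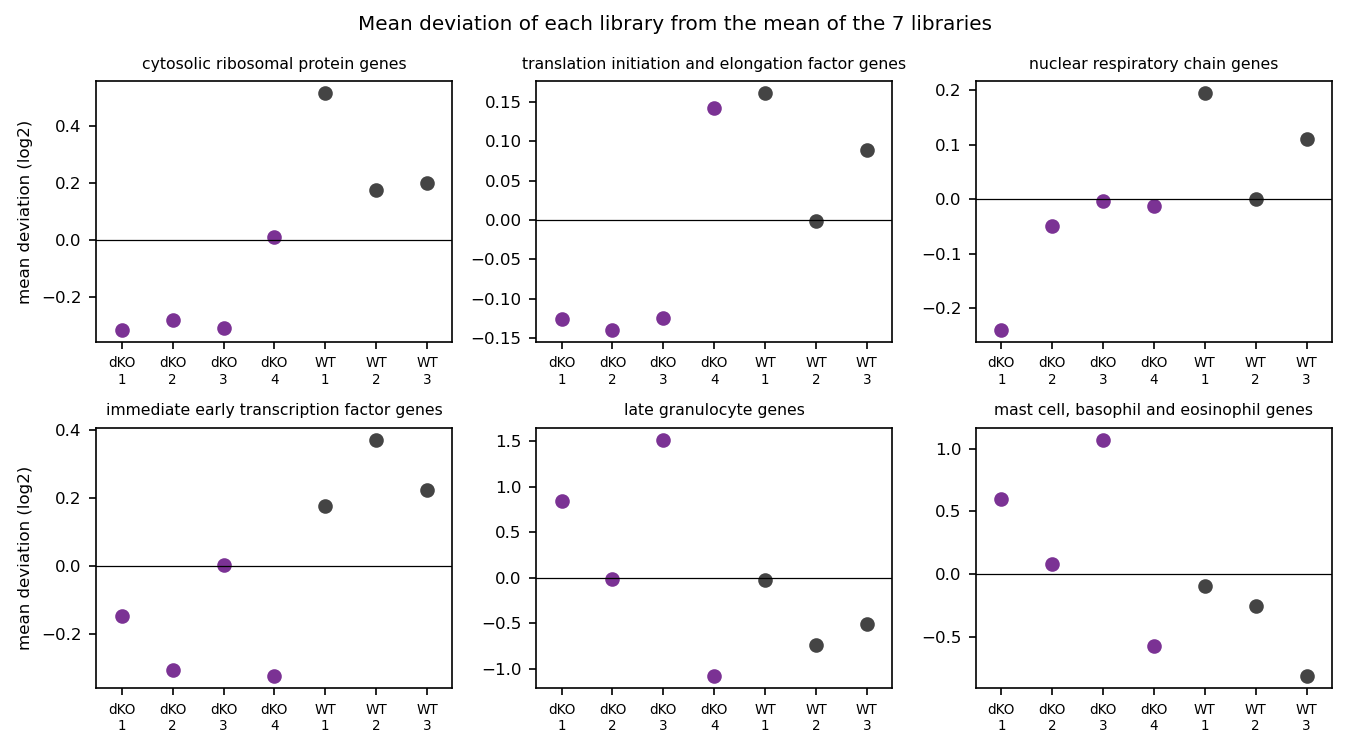
Mean deviation (log2) of 6 gene lists in each library from the mean of the 4 dKO and 3 WT libraries (vertical axis, a separate scale for each list); each point is 1 library. For ribosomal protein genes dKO replicates 1 to 3 lie at -0.32 to -0.28 and replicate 4 at 0.01, while for late granulocyte genes the dKO libraries span -1.08 to 1.52.

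Ribosomal protein and respiratory chain transcripts are short, and transcript length moved with the groups. In 4 bins of transcript length holding about equal numbers of genes, from shortest to longest, the median log2 fold change was -0.07, 0.04, 0.11 and 0.20. The number of genes with an unadjusted limma p under 0.05 was 118 higher and 274 lower in the shortest bin and 477 higher and 27 lower in the longest. The slope of a library's deviation on length, in log2 units for a 10-fold longer transcript, was 0.22, 0.24, 0.02 and 0.02 in dKO replicates 1 to 4 and -0.26, -0.12 and -0.12 in WT replicates 1 to 3. Reads at Rn45s, the ribosomal RNA precursor, were 4.65%, 4.36%, 6.40% and 6.43% of the dKO libraries and 7.66%, 9.09% and 4.20% of the WT libraries. With a length trend removed from each library, the ribosomal protein genes had a median of -0.40, with 43 of 78 lower at an unadjusted limma p under 0.05, and the respiratory chain genes a median of -0.11. The same 8 genes passed in that fit. How much of the ribosomal shift goes with transcript length or ribosomal RNA content was not tested further.

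Glucocorticoid-responsive genes were split, with 7 above and 7 below 0 among 14 tested. Crip1 and Tsc22d3, the 2 that passed, were both lower, against 0.0505% of all genes. At an unadjusted limma p under 0.05, 1 (7.14%) was higher and 4 (28.6%) lower, against 9.7% and 4.31% of all genes. The list was written with earlier results of these data known, so these 2 genes are no separate evidence. In the single knockouts Tsc22d3 had 6.08, 4.99 and 5.43 log2 CPM (TIFAB_KO) and 5.62, 4.51 and 4.68 log2 CPM (miR-146a_KO), so that both overlap dKO or WT in part: TIFAB_KO replicate 1 lay within the WT range, and miR-146a_KO replicates 2 and 3 within the dKO range. Crip1 had 5.61, 5.39 and 5.80 log2 CPM in TIFAB_KO and 5.23, 5.08 and 5.20 log2 CPM in miR-146a_KO.

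The remaining lists had no member that passed the limma test. At an unadjusted p under 0.05 each had at most 4 members in either direction. Over all genes, 9.7% were higher and 4.31% lower at that p. The largest lower shares were 30% of small nucleolar RNA host genes, 13.8% of endoplasmic reticulum genes and 12% of cholesterol synthesis genes. The largest higher shares were 14.3% of myeloid cytokine receptor genes and 13.3% of stromal and endothelial genes. Of 21 myeloid cytokine receptor genes, 18 were above 0, with a median log2 fold change of 0.15, which was 0.06 without WT replicate 3 and 0.28 without dKO replicate 4. The 41 replication-dependent histone genes tested had a median of 0.18, which was 0.03 without dKO replicate 3, 0.02 without WT replicate 3 and 0.06 without dKO replicate 1. Hist1h3d, a histone H3 gene, had 3.72, 4.08, 4.29 and 2.02 log2 CPM in dKO and 1.44, 1.89 and 2.40 log2 CPM in WT (difference 1.61 ± 0.43, limma adjusted p = 0.185). Only dKO replicate 4 lay within the WT range, and without it Hist1h3d passed (2.12, limma adjusted p = 0.00494). The 29 endoplasmic reticulum folding and unfolded protein response genes had a median of 0.15, and the 24 cytosolic heat shock genes a median of -0.04. Small negative medians, some of which turned when 1 library was left out, were -0.04 for 33 apoptosis and survival genes, -0.06 for 24 glycolysis genes and -0.04 for 25 cholesterol synthesis genes. The 15 stromal and endothelial genes tested, of 30 listed, had a median of -0.01. Of 10 small nucleolar RNA host genes, 8 were below 0 with a median of -0.29. The 7 gate and lineage markers tested, of 13, had a median of 0.12.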

How the data were processed

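RNA of sorted LK bone marrow cells was amplified (Ovation RNA-Seq System v2) and made into Nextera XT libraries, per the labels' protocols. TopHat, featureCounts, limma and the build mm10 are named in the submitters' processing notes; their versions, the strand setting and the annotation were not given in the sources used here. What the authors deposited is log2 CPM, with 0.5 read added to each row and 1 to each library total before division; 100% of them came back as whole reads within 0.01, so the totals over 13 libraries (7.83 to 12.8 M reads) are known and limit low genes. Limma 3.58.1 in R 4.3.3 (variance trend, 1 mean per genotype, 13 libraries, 9 residual degrees of freedom) gave log2 fold changes, standard errors and Benjamini-Hochberg adjusted p-values over 11892 genes. Counting limits cover 3 reads and counting error only. Row names were matched to GENCODE M21 (94.4% of rows, 95.2% of genes tested); 27 rows are named by dates and were not interpreted.

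Members, gene lists and alternatives were chosen with earlier results of these data known, and no list was given a test. Named genes are the deleted ones; genes that passed, filled up to 8 per direction by unadjusted p; Traf6, Irak1 and Tifa; and up to 5 members of each list, those that passed or with the smallest p in the direction of the list median. Lists share members, and a few genes are not reported here. Alternatives covered filters, scaling, variance models, weights, libraries left out, a replicate block and, added after seeing the data, transcript length.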

Additional observations from a re-analysis of the deposited data

Results flagged for a closer look

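Among 58 sets of 4 dKO values examined for 1 library far from the other 3 (genes described above, list means and library measures), 2 stood out, both for dKO replicate 4; chance alone gives about 1 in 20. The mean deviation of cytosolic ribosomal protein genes was 0.0117 in that library, against -0.315 to -0.280 in the other dKO libraries. The mean deviation of translation initiation and elongation factor genes was 0.143 in it, against -0.140 to -0.125. The 3 WT libraries lay at 0.18 to 0.51 for the ribosomal list and at -0.000695 to 0.161 for the factor list. No gene described above passed the test of non-additivity.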

How the results depend on the processing

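The 2 higher and 6 lower genes depended on which libraries and which variance model entered. Leaving out 1 library in turn gave 2 to 199 higher and 2 to 138 lower genes. Without dKO replicate 4 there were 199 and 138, and without TIFAB_KO replicate 3, which is in neither group, 15 and 14. Without WT replicate 2 there were 2 lower genes and without WT replicate 1 there were 3. Leaving out WT replicate 1, TIFAB_KO replicate 1 or TIFAB_KO replicate 2 gave 5, 5 and 6 higher genes. Library quality weights gave 598 higher and 204 lower genes, with weights of 0.587 and 0.621 for dKO replicates 3 and 4. A fit without a variance trend gave 2 lower genes, Tifab and Gm2a. Only the dKO and WT libraries gave 5 higher, and leaving out TIFAB_KO replicate 3 and dKO replicate 3 together gave 4 higher. An adjusted p under 0.1 gave 17 higher and 13 lower. The cause was not tested. Lyrm7, Wdfy1, Tifab and Gm2a passed under all alternatives run, with adjusted p at most 0.00317.

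The fit with the replicate block gave 159 higher and 125 lower genes. Whether replicate numbers pair the libraries is not known. Same-numbered dKO and WT libraries had correlations of -0.06, -0.01 and 0.02 in their deviations from group means. Other pairs ran from -0.20 (dKO replicate 4 with WT replicate 3) to 0.27 (dKO replicate 4 with WT replicate 1). With so few libraries these values cannot show whether any shared a batch. The block fits dKO replicate 4, whose number no other group has, on its own.

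Filters, the other scalings, robust variances, voom weights and length removal left both counts within 1.5 times. Tifa turned negative after median centring (-0.0467), quantile normalization (-0.0444) and upper-quartile scaling (-0.0693), and without WT replicates 1 and 3 and dKO replicates 1 and 2; over all libraries left out it ran between -0.116 and 0.223. Depth limits genes near 1 CPM, where a library has about 8 to 13 reads.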
